A study of Mus musculus with 7 samples.

Results

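The genes described here are those that fold, glycosylate, inspect and discard proteins in the endoplasmic reticulum (ER), followed through the maturation of mouse bone marrow-derived dendritic cells (BMDCs). Members were chosen by annotation alone: the KEGG pathway for protein processing in the ER, as the deposited table assigns it. It holds 160 of the 28666 genes of the table. Of these, 8 genes better known for stress transcription, apoptosis or interferon signaling (Bak1, Bax, Bcl2, Atf4, Ddit3, Eif2ak2, Nfe2l2 and Traf2) were left out, which leaves 152 members. No measured value entered this rule, although it was set with earlier results of these data known. Each member was given a role by what its protein does, and the results follow those roles from the entry of a new protein to its export or destruction. Roles too were chosen with earlier results known, and those of Tram1, Rrbp1 and Ckap4 were set after the table was seen.

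Bone marrow of female C57BL/6 mice aged 6 to 8 weeks was grown for 7 days with GM-CSF at 20 ng/mL and IL-4 at 10 ng/mL, cytokines that drive marrow precursors toward a dendritic cell state. The BMDCs were then kept in a Transwell system, in which a porous membrane separated them from MC38 cells, a mouse colon carcinoma line. The study's text places the sorted cells after 24 h with 6-diazo-5-oxo-L-norleucine (DON, 5 µM), a glutamine antagonist. Its scheme of the sort also shows a vehicle arm with DMSO, and the labels name no arm for any library. The study's text gives the DON condition 2 mM glutamine and the DMSO condition 0.6 mM glutamine. Cells were sorted by flow cytometry into an immature fraction (3 libraries) and a mature fraction (4 libraries). No genotype other than the strain and no further allele is given, the sorting gates are not given in the sources used here, and the labels do not say whether replicates came from separate mice or cultures. The study states for its data as a whole that biological experiments were repeated independently, without naming these libraries, so p-values here measure the spread between these libraries, which may be technical. The question is how the RNA of the ER protein processing machinery differs between the 2 states of maturity.

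Proteins bound for the cell surface or for secretion enter the ER through the Sec61 channel, receive glycans from the oligosaccharyltransferase, fold with the help of chaperones and disulfide oxidoreductases, and leave in COPII-coated vesicles. Proteins that fail to fold are drawn back to the cytosol, marked with ubiquitin and passed to the proteasome, a process called ER-associated degradation. When unfolded proteins accumulate, the sensors Ern1 (IRE1), Eif2ak3 (PERK) and Atf6 start the unfolded protein response, which raises transcription of many of these genes. Dendritic cells depend on this machinery to assemble MHC molecules, costimulatory proteins and cytokines.

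Many chaperone genes share a short promoter element, the ER stress response element (ERSE), which ATF6 and XBP1 are known to bind together with the CCAAT-binding factor NF-Y. The sites are shown because several of the chaperones described below carry them. RefSeq promoter windows on GRCm38.p6 ran from 250 bases before to 50 bases after each RefSeq start. They were found for 127 of the 152 members, 3 of them through an older symbol. A gene can have several starts, so these 127 members had 154 windows and all 27025 genes had 32851. A gene was counted once when any of its windows matched. The ERSE letters, CCAAT and CCACG with any 9 bases between them and on either strand, occurred in the windows of 9 of these 127 members (7.09%) and of 37 of all 27025 genes with a window (0.137%). Each site is printed in the direction in which it reads CCAAT, with both ends of the motif in capitals, and Hsp90b1 has 2 sites.
Hspa5: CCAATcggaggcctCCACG
Hsp90b1 site 1: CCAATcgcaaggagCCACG
Hsp90b1 site 2: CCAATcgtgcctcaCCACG
Calr: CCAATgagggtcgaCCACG
Canx: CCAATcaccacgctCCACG
Pdia6: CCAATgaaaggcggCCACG
Syvn1: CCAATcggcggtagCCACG
Dnajc3: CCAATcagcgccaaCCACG
Derl3: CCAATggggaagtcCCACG
Ero1lb: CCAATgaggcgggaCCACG
The sites lie at chr2:34772025-34772043 (Hspa5), chr10:86705638-86705656 and chr10:86705533-86705551 (Hsp90b1), chr8:84847075-84847093 (Calr), chr11:50325800-50325818 (Canx), chr12:17266491-17266509 (Pdia6), chr19:6046532-6046550 (Syvn1), chr14:118937827-118937845 (Dnajc3), chr10:75893242-75893260 (Derl3) and chr13:12565682-12565700 (Ero1lb). All 10 sites lie upstream of the RefSeq start of their window. The nearest is in Syvn1, from 44 to 26 bases before that start, and the farthest in Hsp90b1, from 212 to 194 bases before it. These starts can differ from the gene coordinates given below. The coordinates of Hspa5 begin at 34771970, before its site, which therefore lies inside that gene span.

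The 250 bases before the RefSeq start of Hspa5, the ER chaperone BiP and the usual reporter of the unfolded protein response, are given with the ERSE in capitals (chr2:34771840-34772089, plus strand, GRCm38.p6).
Hspa5 promoter: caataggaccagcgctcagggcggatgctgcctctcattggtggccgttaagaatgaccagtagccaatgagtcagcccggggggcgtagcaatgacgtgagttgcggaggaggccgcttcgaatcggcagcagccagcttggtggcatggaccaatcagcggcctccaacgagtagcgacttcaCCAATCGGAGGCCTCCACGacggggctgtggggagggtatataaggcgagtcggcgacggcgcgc
The same stretch of Hsp90b1, the ER member of the HSP90 family, holds the ERSE on both strands, and the second site reads as its complement here (chr10:86705445-86705694, minus strand, GRCm38.p6).
Hsp90b1 promoter: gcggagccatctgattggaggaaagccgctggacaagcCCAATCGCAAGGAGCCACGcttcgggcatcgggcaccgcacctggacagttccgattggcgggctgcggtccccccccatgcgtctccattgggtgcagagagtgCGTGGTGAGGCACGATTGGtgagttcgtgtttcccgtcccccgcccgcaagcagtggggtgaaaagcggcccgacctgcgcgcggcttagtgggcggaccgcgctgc
A shorter relative, ERSE-II (ATTGG and CCACG with any 1 base between them, either strand), was present in 2 members, Herpud1 from 52 to 42 bases before the start and Dnajb11 from 7 to 17 bases after it, and in 12 of 27025 genes (0.0444%).
Herpud1: ATTGGGCCACG
Dnajb11: ATTGGCCCACG
A further motif, TGACGTGG on either strand, the core of the unfolded protein response element, was in 6 members (Mapk8, Sec23a, Sec24d, Txndc5, Ube2j1 and Vcp; 4.72%) and 193 of all genes (0.714%). In this set of members no gene held more than 1 kind of motif, and a match of letters describes the window without showing that a factor binds there.

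Expression is given in CPM, a gene's counts relative to the TMM-scaled library total, which compares a gene between libraries, or in FPKM, which also corrects for gene length and allows levels of different genes to be compared. Total counts were 54846746 to 67973086 per library. Mature replicate 3 stood apart from the other libraries: relative to the other mature libraries its log2 ratios fell with gene length, with a Spearman rho of -0.58 across 148 members and -0.38 across 17461 genes, which are not independent replicates. Gene length here was the ratio of summed counts to summed FPKM over all 7 libraries, a length implied by these values. Mature replicates 2, 3 and 4 held RNA of cardiac muscle, with 914, 1087 and 948 CPM summed over 14 markers, all of which rose, against 29.8 in mature replicate 1 and 7.68 to 9.03 in the immature libraries. All 10 macrophage markers fell, from 2379 to 2476 CPM in sum to 441 to 505, and 7 of 10 dendritic cell markers rose while Itgax (CD11c) fell, with sums of 9419 to 10061 CPM in immature and 13212 to 18172 CPM in mature cells. Among the other lists, T cell markers summed to 3.53 to 4.06 against 4.30 to 6.79 CPM, neutrophil markers to 1.91 to 3.49 against 1.25 to 2.50, plasmacytoid dendritic cell markers to 41.1 to 42.9 against 54.8 to 77.7, epithelial markers to 69.9 to 77.3 against 59.2 to 69.7 and B and plasma cell markers to 347 to 388 against 345 to 384. These last 2 sums rest mostly on 1 gene each. Sdc1 was at 344 to 383 CPM in immature and 343 to 379 CPM in mature libraries, and Cdh1 at 50.7 to 57.8 and 47.3 to 54.2 CPM. In the B and plasma cell list, 1 of 5 genes tested passed, Igkc, which rose from a mean of 0.114 to 0.740 CPM. Of 5 epithelial genes tested, only Epcam passed and rose, from a mean of 0.268 to 1.28 CPM. In immature libraries the B cell markers Ms4a1 and Jchain, the neutrophil marker Mpo, the epithelial marker Cldn7 and the cardiac markers Myl2 and Ckmt2 had at most 3 counts each. The part of these library features in the results below was not tested except where a value without the libraries is given.

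Mature BMDCs carried less RNA of the ER folding and glycosylation machinery than immature BMDCs. Of 148 members tested, 63 fell, 16 rose and 69 did not pass the test (edgeR's quasi-likelihood test, Benjamini-Hochberg adjusted p under 0.05 over all genes tested). Among all 17461 genes tested, 22.9% fell and 23.2% rose, 46.1% in either direction, so that the share of members that fell (42.6%) lay above that of all genes and the share that rose (10.8%) below it. The median log2 fold change was -0.24 over the members and 0.05 over all genes. With a further requirement of a 2-fold change, 12 members were lower and 6 higher, where 9.95% of all genes were lower and 13.2% higher. In these bulk samples, fewer cells of a type and less RNA per cell cannot be told apart.

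The separation was visible in the single libraries. For 69 members (46.6%) every mature library lay below every immature library, against 26.7% of all genes, and for 18 members (12.2%) every mature library lay above, against 25.4%. Without mature replicate 3 the counts were 78 members lower and 28 higher, with 28.3% of all genes lower and 29.1% higher. With mature replicate 1, the library with little cardiac RNA, as the only mature library, 69 members were lower and 23 higher, beside 22.5% of all genes lower and 20.2% higher, a fit in which the lone library is assumed to vary like the immature ones. The 4 members not tested for low counts were Cryaa, Dnajc5b, Sel1l2 and Ube2d2b.

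**Figure D1:**
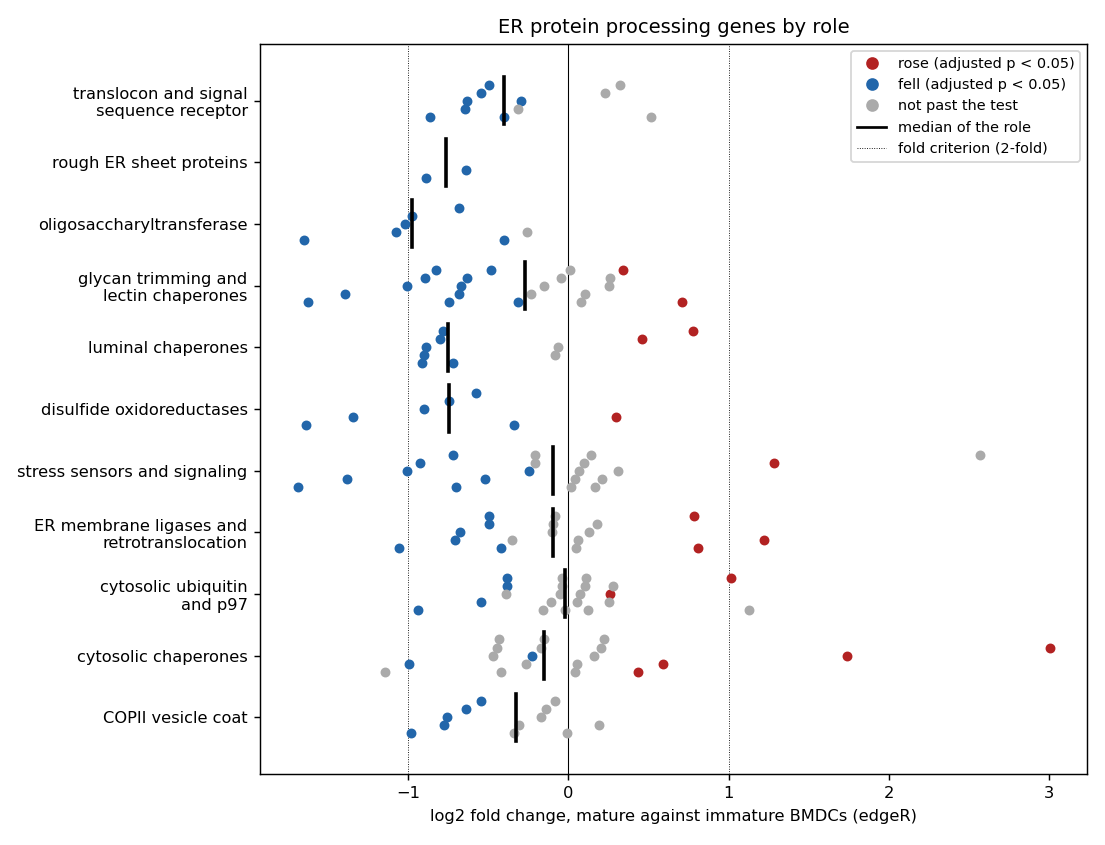
Log2 fold change of mature against immature BMDCs (x axis, edgeR) for 147 tested ER protein processing genes, 1 point a gene, arranged by role (y axis, with vertical offsets only to part the points). Red points rose, blue points fell and grey points did not pass the test, black bars are role medians and dotted lines mark a 2-fold change, and Lman1l, with no count in immature cells, is left out of the points. The oligosaccharyltransferase, the luminal chaperones and the oxidoreductases lie mostly left of 0, with medians of -0.97, -0.75 and -0.74, and the cytosolic groups lie about 0.

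The members together took 2.16, 2.17 and 2.17% of all counts in the immature libraries and 1.99, 1.99, 1.91 and 2.02% in the mature libraries. A pair of cytosolic chaperones held much of this: Hspa8 stood at 416 ± 6.68 FPKM in immature and 672 ± 25.4 FPKM in mature cells and Hsp90ab1 at 467 ± 10.6 FPKM in immature and 578 ± 5.31 FPKM in mature cells (mean ± SD, n = 3 and n = 4). Without these 2 genes the share went from 1.82% in each immature library to 1.49, 1.50, 1.40 and 1.51% in the mature libraries. On the FPKM scale 139 of the 152 members had a mean of at least 1 in either group and 8 a mean of at least 100 in immature cells: Hsp90ab1, Hspa8, P4hb, Calr, Pdia3, Hsp90b1, Hspa5 and Bcap31, the last 6 of which fell.

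The translocon carries new chains across the ER membrane, and 7 of its 11 members fell while 4 did not pass the test. As a share, 63.6% fell, beside 22.9% of all genes. Tram1, a membrane protein beside the channel that helps chains insert, was at 126, 131 and 129.6 CPM in immature and 74.1, 67.8, 67.0 and 74.3 CPM in mature libraries (log2 fold change -0.86 ± 0.07, adjusted p = 2.4e-05). The 3 subunits of the signal sequence receptor (TRAP) complex that passed, Ssr1, Ssr2 and Ssr3, fell by 0.55, 0.64 and 0.64 on the log2 scale, and Ssr4 was at -0.32 ± 0.14 (adjusted p = 0.107). Sec61a1, the pore-forming subunit, stood at 268, 254 and 283 CPM in immature and 214, 192, 189.6 and 217 CPM in mature libraries (log2 fold change -0.40 ± 0.08, adjusted p = 0.00447), and no mature library reached the lowest immature library. Sec62 and Sec63, which assist transport after translation, had log2 fold changes of -0.50 ± 0.07 (adjusted p = 0.00061) and -0.29 ± 0.07 (adjusted p = 0.00766). The call of Sec63 was lost in both limma fits on FPKM (adjusted p = 0.101 and 0.102).

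The small subunits Sec61b and Sec61g, unlike the pore, did not pass the test, and both were highest in mature replicate 3. Sec61b was at 89.5, 111 and 112 CPM in immature and 127, 110.0, 239 and 119 CPM in mature libraries, with mature replicate 3 far above the rest and the other libraries overlapping (log2 fold change 0.51 ± 0.26, adjusted p = 0.144). Without mature replicate 3 its log2 fold change was 0.22 ± 0.09 (adjusted p = 0.069). Sec61g showed the same shape, at 22.4, 23.9 and 26.2 CPM in immature and 23.2, 22.2, 44.3 and 23.6 CPM in mature libraries (log2 fold change 0.23 ± 0.24, adjusted p = 0.48).

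Rough ER is shaped into sheets by Rrbp1, the ribosome-binding protein p180, and Ckap4, the membrane spacer CLIMP-63, and both fell. The role of these genes was set after the table was seen. Rrbp1 was at 394, 392 and 407 CPM in immature and 222, 219, 202 and 216 CPM in mature libraries (log2 fold change -0.89 ± 0.07, adjusted p = 1.55e-05). Ckap4 was at 74.7, 79.7 and 73.0 CPM in immature and 48.4, 48.7, 49.9 and 47.8 CPM in mature libraries (log2 fold change -0.64 ± 0.07, adjusted p = 0.000118), so both pairs of groups were fully apart.

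The oligosaccharyltransferase, which transfers the preformed glycan to asparagine residues, had the lowest median log2 fold change of all roles (-0.97), and 6 of its 7 members fell, 3 of them more than 2-fold. Of all genes, 22.9% fell and 9.95% were lower by 2-fold or more. Rpn1, ribophorin I (ENSMUSG00000030062, chromosome 6, 88084482 to 88105304, plus strand), was at 326, 337 and 310.3 CPM in immature and 97.9, 97.1, 107 and 112 CPM in mature libraries (log2 fold change -1.65 ± 0.08, adjusted p = 1.13e-06), the largest fall of the role. Rpn2, ribophorin II, was at 369.6, 376 and 373 CPM in immature and 171, 166, 187 and 183 CPM in mature libraries (log2 fold change -1.08 ± 0.07, adjusted p = 6.24e-06). The 2 alternative catalytic subunits fell nearly alike: Stt3a, which works at the channel, by 1.02 and Stt3b, which works after it, by 0.97 on the log2 scale. Stt3a stood at 231, 227 and 240.1 CPM in immature and 115, 115, 103 and 126 CPM in mature libraries (adjusted p = 1.85e-05).

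Ddost and Tusc3 fell less, with log2 fold changes of -0.69 ± 0.09 (adjusted p = 0.000241) and -0.40 ± 0.09 (adjusted p = 0.00697). Dad1, a small subunit needed for the stability of the complex, was at 44.9, 49.1 and 49.4 CPM in immature and 35.9, 33.6, 54.3 and 35.9 CPM in mature libraries (log2 fold change -0.26 ± 0.17, adjusted p = 0.234), with mature replicate 3 above all other libraries. As a share of all counts the role went from 0.134 to 0.137% in immature libraries to 0.0693 to 0.0743% in mature libraries, the range of the mature libraries being narrow although it includes mature replicate 3.

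Of the chaperones and cochaperones of the ER itself, 6 of 10 fell, 2 rose and 2 did not pass the test. As shares, 60% fell and 20% rose, beside 22.9% and 23.2% of all genes. Hspa5 (BiP; ENSMUSG00000026864, chromosome 2, 34771970 to 34777547, plus strand) was at 744, 696 and 655 CPM in immature and 351, 355, 419 and 361 CPM in mature libraries, and the highest mature library was well below the lowest immature one (log2 fold change -0.91 ± 0.09, adjusted p = 6.06e-05). Hsp90b1 (GRP94; ENSMUSG00000020048, chromosome 10, 86690209 to 86705509, minus strand), which folds Toll-like receptors and integrins, was at 771, 803 and 806 CPM in immature and 425, 414, 435 and 423 CPM in mature libraries (log2 fold change -0.90 ± 0.07, adjusted p = 1.07e-05), with the mature libraries within a few percent of each other. Without mature replicate 3 the log2 fold changes were -0.95 for Hspa5 and -0.89 for Hsp90b1, and with mature replicate 1 as the only mature library they were -0.97 and -0.88.

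Partners of BiP divided. Hyou1 and Sil1, its nucleotide exchange factors, fell by 0.80 and 0.72 on the log2 scale, and Dnajb11, a J-domain cochaperone, was at 97.4, 99.3 and 97.8 CPM in immature and 50.5, 49.2, 57.1 and 55.5 CPM in mature libraries (log2 fold change -0.89 ± 0.08, adjusted p = 3.22e-05). The other 2 J-domain genes past the test rose: Dnajc1 was at 38.5, 37.6 and 37.9 CPM in immature and 68.2, 72.2, 54.5 and 66.0 CPM in mature libraries (log2 fold change 0.78 ± 0.11, adjusted p = 0.000371). Dnajc10, a J-domain protein that also reduces disulfides of proteins bound for degradation, was at 115, 116 and 107 CPM in immature and 157, 159, 135 and 167 CPM in mature libraries (log2 fold change 0.46 ± 0.09, adjusted p = 0.00322). Dnajc3, a J-domain protein also known as an inhibitor of PERK, was at 121, 111 and 111 CPM in immature and 117, 116, 90.1 and 115 CPM in mature libraries, with overlapping groups (log2 fold change -0.07 ± 0.11, adjusted p = 0.652). Bcap31, an ER membrane chaperone placed with this role, fell by 0.78, and Erp29 was at -0.08 ± 0.18 (adjusted p = 0.743).

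Disulfide bonds are made by the protein disulfide isomerases, which Ero1 oxidases recharge, and 6 of these 7 genes fell. As shares, 85.7% fell and 14.3% rose, beside 22.9% and 23.2% of all genes. P4hb (PDI; ENSMUSG00000025130, chromosome 11, 120560298 to 120573253, minus strand), the most abundant member inside the ER by FPKM in immature cells, was at 338 ± 1.43 FPKM in immature and 217 ± 8.72 FPKM in mature cells, and in CPM at 1091, 1078 and 1137 in the immature and 621, 640.2, 685 and 685 in the mature libraries (log2 fold change -0.74 ± 0.08, adjusted p = 6.21e-05). Pdia4 was at 231, 228 and 241 CPM in immature and 88.6, 93.9, 89.9 and 95.8 CPM in mature libraries (log2 fold change -1.34 ± 0.07, adjusted p = 1.39e-06), a fall of more than 2-fold in every mature library. Pdia6 and Pdia3, which works with the lectin chaperones, fell by 0.90 and 0.57, and Txndc5 fell by 0.34.

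The 2 oxidases went opposite ways. Ero1l (ERO1 alpha; ENSMUSG00000021831, chromosome 14, 45283087 to 45318572, minus strand) was at 399.8, 391 and 401 CPM in immature and 119, 134, 108 and 151 CPM in mature libraries (log2 fold change -1.64 ± 0.11, adjusted p = 7.11e-06). Ero1lb (ERO1 beta) was at 54.6, 57.8 and 54.4 CPM in immature and 73.1, 68.2, 60.1 and 72.4 CPM in mature libraries (log2 fold change 0.30 ± 0.09, adjusted p = 0.0255), each mature library above each immature one. The rise of Ero1lb no longer passed the test when any single library other than mature replicate 3 was left out (edgeR adjusted p = 0.0511 to 0.105), whereas Ero1l kept its call in all alternatives tried. In FPKM the ratio of Ero1lb to Ero1l went from 0.108 to 0.118 in immature libraries to 0.381 to 0.490 in mature libraries.

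**Figure D2:**
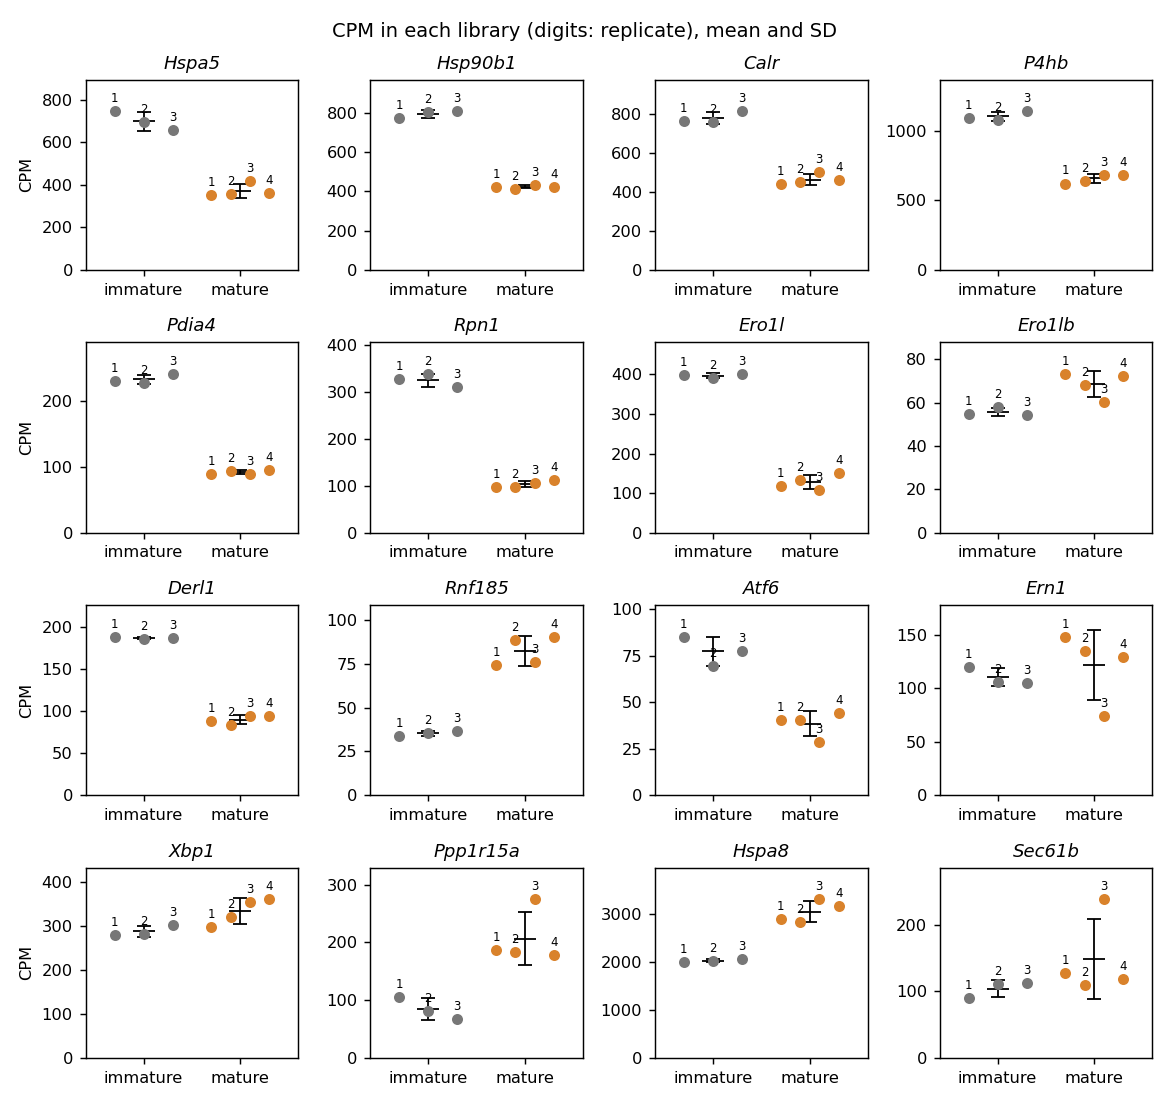
CPM (y axes, from 0) of 16 ER protein processing genes in each immature (grey) and mature (orange) library, with the replicate number above each point and bars for the mean and SD of 3 or 4 libraries. Hspa5, Hsp90b1, Calr, P4hb, Pdia4, Rpn1, Ero1l, Derl1 and Atf6 are lower in all 4 mature libraries, Ero1lb, Rnf185, Ppp1r15a and Hspa8 are higher, and mature replicate 3 sits apart for Ern1 (73.6 CPM) and Sec61b (239 CPM).

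Glycoproteins are trimmed by glucosidases, held by the lectins calnexin and calreticulin, checked by Uggt1, and sent either outward or, after mannose trimming, to degradation. Of 22 members, 11 fell (50%, beside 22.9% of all genes), 3 rose (13.6%, beside 23.2%) and 8 did not pass the test. Calr (calreticulin; ENSMUSG00000003814, chromosome 8, 84841850 to 84846934, minus strand), also part of the MHC class I loading complex, was at 767, 758 and 814 CPM in immature and 442, 451, 504 and 461 CPM in mature libraries (log2 fold change -0.75 ± 0.08, adjusted p = 7.83e-05). Canx (calnexin) was at 442, 459 and 450.4 CPM in immature and 335, 322, 305 and 325 CPM in mature libraries (log2 fold change -0.49 ± 0.07, adjusted p = 0.000558). Uggt1, the folding sensor that reglucosylates misfolded glycoproteins, was at 195, 183 and 193 CPM in immature and 112, 106, 81.9 and 109 CPM in mature libraries (log2 fold change -0.90 ± 0.11, adjusted p = 0.000242), while its paralog Uggt2 was between 0.834 and 1.78 CPM in all 7 libraries. The glucosidase genes Mogs and Ganab fell by 0.63 and 0.68, and Prkcsh, the partner of Ganab, was at -0.15 ± 0.12 (adjusted p = 0.355).

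Among the mannosidases, Edem3, which trims glycoproteins marked for degradation, was at 42.5, 38.2 and 43.1 CPM in immature and 17.8, 6.35, 10.7 and 18.6 CPM in mature libraries (log2 fold change -1.63 ± 0.32, adjusted p = 0.00329), and mature replicates 2 and 3 were lower than mature replicates 1 and 4. Its relative Edem1 was at 313, 288 and 300.1 CPM in immature and 323, 337, 280.0 and 327 CPM in mature libraries (log2 fold change 0.08 ± 0.09, adjusted p = 0.5). Man1c1 was at 103, 88.5 and 108 CPM in immature and 37.5, 39.1, 31.7 and 43.5 CPM in mature libraries (log2 fold change -1.39 ± 0.12, adjusted p = 2.44e-05), and Man1a2 fell by 0.82. Man1a, another mannosidase of the same enzyme family, rose, at 74.4, 73.4 and 83.1 CPM in immature and 133, 133, 109 and 129.8 CPM in mature libraries (log2 fold change 0.71 ± 0.10, adjusted p = 0.000422).

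The cargo lectins Lman1 (ERGIC-53) and Lman2 (VIP36), which carry glycoproteins out of the ER, both fell. Lman1 was at 95.8, 93.7 and 99.7 CPM in immature and 51.3, 48.4, 41.2 and 51.2 CPM in mature libraries (log2 fold change -1.01 ± 0.09, adjusted p = 3.99e-05), and Lman2 fell by 0.67. Lman1l, a homolog of Lman1, was without a single count in immature cells and had 11, 3, 27 and 14 counts in mature replicates 1 to 4, which is at least 4.69-fold higher when the immature group is set at a floor of 3 counts per library (adjusted p = 0.0143). It was not tested without mature replicate 1, 3 or 4, with mature replicate 1 alone or in the fits limited by FPKM, where it failed the filters on low values. The ER lectins Os9 and Erlec1, which hand trimmed glycoproteins to the degradation complex, moved apart, with log2 fold changes of -0.31 ± 0.07 (adjusted p = 0.00612) and 0.34 ± 0.09 (adjusted p = 0.0152).

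The channel and ligases of ER-associated degradation in the ER membrane were split. Of 17 tested, 6 fell (35.3%, beside 22.9% of all genes), 3 rose (17.6%, beside 23.2%) and 8 did not pass the test. Derl1, a derlin that forms part of the exit channel, was at 189, 186 and 187 CPM in immature and 88.4, 83.9, 94.3 and 93.7 CPM in mature libraries (log2 fold change -1.05 ± 0.07, adjusted p = 6.67e-06), and Derl2 at 51.4, 58.5 and 62.1 CPM in immature and 54.4, 53.7, 56.9 and 49.5 CPM in mature libraries (log2 fold change -0.10 ± 0.09, adjusted p = 0.431). Sel1l and Syvn1 (HRD1), the adaptor and the ubiquitin ligase of the main degradation complex, fell together. Sel1l was at 276, 244 and 273 CPM in immature and 174, 178, 118 and 177 CPM in mature libraries (log2 fold change -0.71 ± 0.15, adjusted p = 0.00407), with mature replicate 3 the lowest, and its log2 fold change was -0.56 ± 0.05 without that library. Syvn1 was at 58.0, 54.9 and 54.5 CPM in immature and 34.3, 33.5, 37.7 and 34.4 CPM in mature libraries (log2 fold change -0.67 ± 0.08, adjusted p = 0.000161). Herpud1, a partner of HRD1 and a common stress marker, was at 126, 121 and 123 CPM in immature and 123, 119.6, 138 and 134 CPM in mature libraries, with overlapping groups (log2 fold change 0.06 ± 0.08, adjusted p = 0.577).

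Rnf185 (ENSMUSG00000020448, chromosome 11, 3415982 to 3452363, minus strand), another ubiquitin ligase of the ER membrane, rose, at 33.8, 35.6 and 36.9 CPM in immature and 74.4, 88.8, 76.0 and 90.5 CPM in mature libraries (log2 fold change 1.22 ± 0.10, adjusted p = 1.86e-05). Svip, a small p97-binding protein known to inhibit this degradation route, was at 18.8, 20.3 and 19.0 CPM in immature and 30.8, 36.0, 34.3 and 34.6 CPM in mature libraries (log2 fold change 0.81 ± 0.09, adjusted p = 0.000122). Ube2g2, a ubiquitin-conjugating enzyme of the ER surface, was at 45.2, 47.7 and 55.0 CPM in immature and 77.7, 79.2, 97.8 and 84.9 CPM in mature libraries (log2 fold change 0.78 ± 0.11, adjusted p = 0.000509), while Ube2j1, the conjugating enzyme anchored in the ER membrane, fell by 0.42. Marchf6 and Selenos fell by 0.49 and 0.50.

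In the cytosol, the ATPase p97 pulls proteins out of the membrane and shuttle factors bring them to the proteasome. Of 21 tested members of this role, 2 rose, 4 fell and 15 did not pass the test, with a median log2 fold change of -0.02. The shares were 9.52% higher and 19.0% lower, beside 23.2% and 22.9% of all genes. Vcp (p97) itself was at 372, 388 and 395 CPM in immature and 353, 375, 363 and 396 CPM in mature libraries (log2 fold change -0.05 ± 0.07, adjusted p = 0.621). Of its cofactors, Nsfl1c (p47) was at 32.4, 37.4 and 32.9 CPM in immature and 64.2, 62.0, 89.3 and 61.7 CPM in mature libraries (log2 fold change 1.02 ± 0.15, adjusted p = 0.000568), with mature replicate 3 above the rest and a log2 fold change of 0.90 ± 0.07 without it. Nploc4 was at 126, 126 and 124 CPM in immature and 154, 151, 137 and 157 CPM in mature libraries (log2 fold change 0.26 ± 0.08, adjusted p = 0.0226), a call lost on leaving out immature replicate 1, 2 or 3 or mature replicate 1 or 4 (adjusted p = 0.0589 to 0.09). The shuttle factors Rad23b and Ubqln1 fell, with log2 fold changes of -0.94 ± 0.10 (adjusted p = 7.53e-05) and -0.55 ± 0.08 (adjusted p = 0.000585).

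The sensors of the unfolded protein response did not move as a group. Of 20 members of this role, 8 fell (40%, beside 22.9% of all genes), 1 rose (5%, beside 23.2%) and 11 did not pass the test. Atf6, the sensor that is cleaved in the Golgi to become a transcription factor, was at 85.2, 69.6 and 77.5 CPM in immature and 40.6, 40.7, 28.7 and 44.1 CPM in mature libraries (log2 fold change -1.01 ± 0.15, adjusted p = 0.000595), and its relative Atf6b fell by 0.70. Mbtps2, the site-2 protease that frees both, was at 38.9, 36.8 and 35.7 CPM in immature and 22.2, 22.0, 14.6 and 19.4 CPM in mature libraries (log2 fold change -0.92 ± 0.15, adjusted p = 0.000918), whereas Mbtps1, the site-1 protease, was at 93.0, 90.3 and 95.5 CPM in immature and 128, 118, 90.4 and 124 CPM in mature libraries (log2 fold change 0.31 ± 0.12, adjusted p = 0.0675).

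Ern1, the sensor and RNase IRE1, was at 119.7, 105 and 105 CPM in immature and 148, 135, 73.6 and 129 CPM in mature libraries, so that mature replicates 1, 2 and 4 were above and mature replicate 3 below every immature library (log2 fold change 0.14 ± 0.21, adjusted p = 0.624). Without mature replicate 3 the log2 fold change was 0.34 ± 0.07 (edgeR adjusted p = 0.00271). Eif2ak3, the sensor kinase PERK, had the same order, at 44.7, 42.2 and 45.9 CPM in immature and 55.2, 54.3, 38.8 and 50.7 CPM in mature libraries (log2 fold change 0.17 ± 0.13, adjusted p = 0.313), and 0.29 ± 0.06 without that library (edgeR adjusted p = 0.00243). Xbp1, the factor whose mRNA IRE1 splices, was at 279, 282 and 302 CPM in immature and 297, 321, 353 and 360.1 CPM in mature libraries, with overlapping groups (log2 fold change 0.21 ± 0.09, adjusted p = 0.0907). Xbp1 passed the test in 5 alternatives (adjusted p = 0.00926 to 0.044), which were both limma fits on FPKM, the filter on FPKM, and the fits without mature replicate 1 and without mature replicate 3, each time as a rise. With mature replicate 1, the library with little cardiac RNA, as the only mature library, the log2 fold change of Xbp1 was 0.07 ± 0.07. These are gene totals, and the spliced form of Xbp1 was not measured.

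Ppp1r15a (GADD34; ENSMUSG00000040435, chromosome 7, 45522916 to 45526268, minus strand), which removes the phosphate that PERK places on eIF2 alpha, was at 106, 81.9 and 67.1 CPM in immature and 187, 184, 275 and 179 CPM in mature libraries (log2 fold change 1.28 ± 0.20, adjusted p = 0.00089), with mature replicate 3 above the rest and 1.14 ± 0.14 without it. Eif2s1, eIF2 alpha itself, was at -0.25 ± 0.08, and its adjusted p of 0.0414 rose past 0.05 in 12 alternatives (0.0546 to 0.135), 6 of which left out a single library, any but mature replicate 3. Of the other kinases of eIF2 alpha, Eif2ak1 fell by 0.52 and Eif2ak4 was at 0.10 ± 0.15 (adjusted p = 0.627).

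Map3k5 (ASK1; ENSMUSG00000071369, chromosome 10, 19934472 to 20142753, plus strand), a kinase that links IRE1 to JNK signaling, was at 10.7, 9.40 and 9.68 CPM in immature and 2.62, 3.48, 3.27 and 2.96 CPM in mature libraries (log2 fold change -1.69 ± 0.15, adjusted p = 3.02e-05), the largest fall of all members. Wfs1, wolframin, an ER membrane protein that dampens ATF6, was at 32.6, 30.0 and 33.5 CPM in immature and 10.5, 13.0, 11.6 and 14.0 CPM in mature libraries (log2 fold change -1.38 ± 0.12, adjusted p = 2.15e-05). Mapk10, a JNK kinase of neurons and heart, had 4, 3 and 0 counts in the immature and 0, 25, 19 and 16 counts in the mature libraries, the 3 higher ones being those with cardiac RNA (log2 fold change 2.57 ± 1.34, adjusted p = 0.151). Capn2, a calpain, fell by 0.72, and the JNK genes Mapk8 and Mapk9 were at 0.06 ± 0.14 and -0.21 ± 0.08 (adjusted p = 0.74 and 0.0524).

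Folded proteins leave the ER in COPII vesicles, and 5 of the 12 coat genes fell, none rose and 7 did not pass the test. The share that fell was 41.7%, beside 22.9% of all genes, while 23.2% of all genes rose. Of the cargo-binding SEC24 subunits, Sec24d was at 52.0, 48.6 and 50.2 CPM in immature and 27.4, 28.5, 19.1 and 26.8 CPM in mature libraries (log2 fold change -0.98 ± 0.14, adjusted p = 0.000441) and Sec24a fell by 0.76. Sec24b and Sec24c were at -0.01 ± 0.13 and 0.19 ± 0.10 (adjusted p = 0.976 and 0.153). Sec23b was at 66.1, 66.8 and 63.3 CPM in immature and 40.4, 38.2, 34.9 and 39.1 CPM in mature libraries (log2 fold change -0.78 ± 0.08, adjusted p = 7.29e-05), and its paralog Sec23a was at -0.31 ± 0.12 (adjusted p = 0.0599). The GTPase Sar1b and the outer coat protein Sec13 fell by 0.64 and 0.54, while Sar1a was at -0.17 ± 0.07 (adjusted p = 0.0795).

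The cytosolic chaperones, which the pathway includes for their work on proteins returned from the ER, were mostly not past the test. Of 19 tested, 4 rose (21.1%, beside 23.2% of all genes), 2 fell (10.5%, beside 22.9%) and 13 did not pass the test. The median log2 fold change was -0.15. Their share of all counts went from 0.437 to 0.450% in the immature to 0.599 to 0.622% in the mature libraries, most of it from Hspa8 and Hsp90ab1, without which it went from 0.0962 to 0.0971% to 0.0985 to 0.107%. Hspa8 (HSC70) was at 2007, 2034 and 2064 CPM in immature and 2903, 2846, 3315 and 3172 CPM in mature libraries (log2 fold change 0.59 ± 0.08, adjusted p = 0.000542). Hsp90ab1 was at 1549, 1603 and 1628 CPM in immature and 1783, 1747, 1978 and 1833 CPM in mature libraries, every mature library above every immature one (log2 fold change 0.20 ± 0.08, adjusted p = 0.0614). Hsp90aa1, the stress-inducible form of cytosolic HSP90, had a log2 fold change of -0.23 ± 0.08 (adjusted p = 0.0368), a call that 11 alternatives did not keep (adjusted p = 0.0526 to 0.24). These included leaving out immature replicate 1 or 2 or mature replicate 1, 2 or 4.

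Dnajb2 (ENSMUSG00000026203, chromosome 1, 75236406 to 75245692, plus strand), a J-domain protein with ubiquitin-binding motifs, was at 9.83, 11.4 and 10.5 CPM in immature and 34.0, 34.7, 41.9 and 30.3 CPM in mature libraries (log2 fold change 1.74 ± 0.13, adjusted p = 1.06e-05). Hsph1, an exchange factor for HSP70, rose by 0.43 on the log2 scale, and its relative Hspa4l fell by 0.99. The inducible HSP70 genes Hspa1a and Hspa1b, whose near-identical sequences share reads, were at -1.14 ± 0.43 and -0.43 ± 0.28 (adjusted p = 0.0587 and 0.251). Cryab, a small heat shock protein abundant in heart muscle, was at 1.12, 1.87 and 2.71 CPM in immature and 3.58, 17.5, 21.5 and 18.7 CPM in mature libraries (log2 fold change 3.00 ± 0.60, adjusted p = 0.00347). Its 3 high values are in the libraries with cardiac RNA, and with mature replicate 1 as the only mature library its log2 fold change was 0.93 ± 0.43 (edgeR adjusted p = 0.12).

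**Figure D3:**
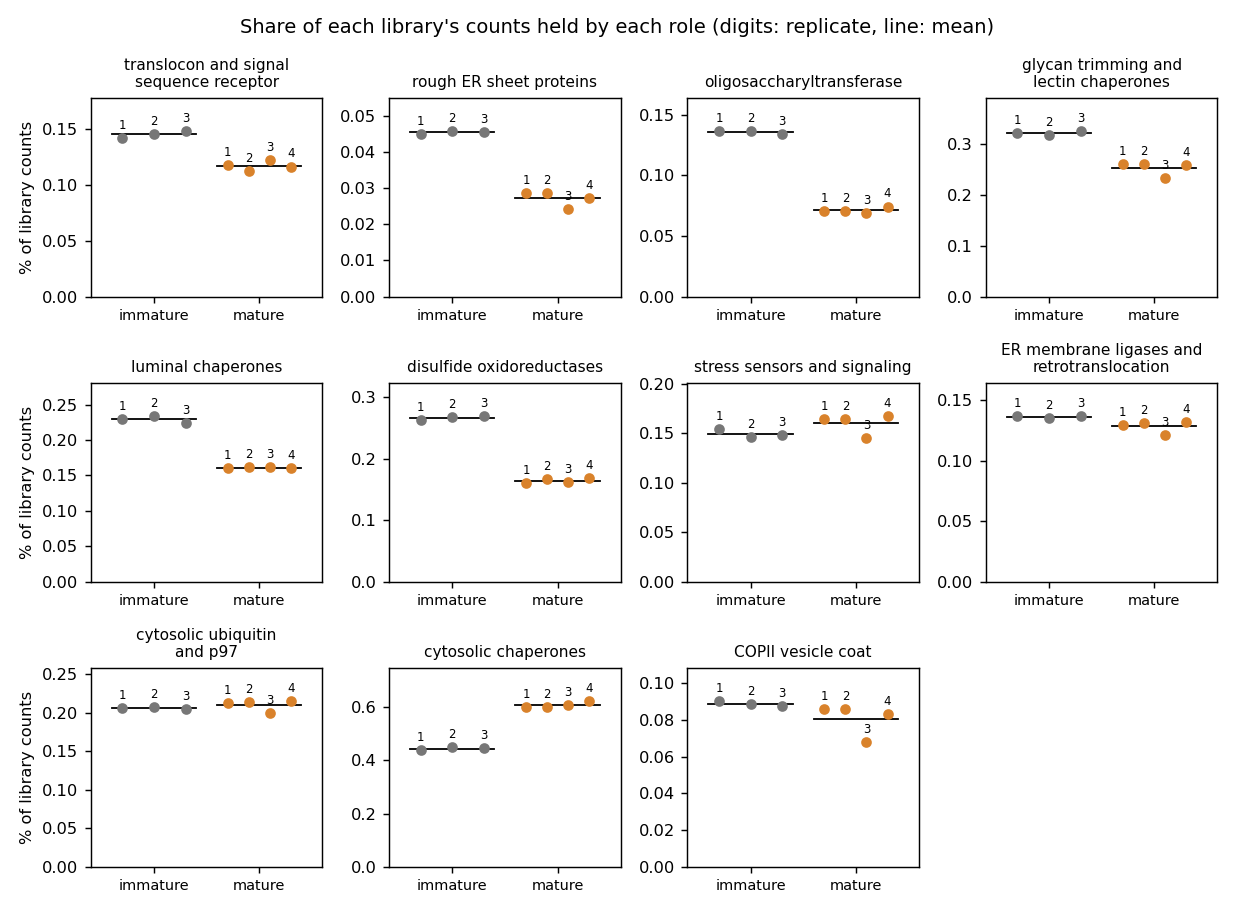
Share of each library's counts (y axes, percent, from 0) held by the genes of each role, with 1 point a library, its replicate number and a line at the group mean. The oligosaccharyltransferase fell from 0.134 to 0.137% to 0.0693 to 0.0743%, the oxidoreductases and luminal chaperones moved the same way, and the cytosolic chaperones are higher in all 4 mature libraries.

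Several related genes differed in direction or size, which can be read as a ratio within each library and so does not rest on scaling between libraries. The ratio of Dnajb2 to Dnajb11, J-domain proteins of the cytosol and of the ER lumen, was 0.0761 to 0.0870 in immature and 0.414 to 0.558 in mature libraries on the FPKM scale. Man1a to Man1c1 went from 0.430 to 0.492 to 1.77 to 2.11, so the more abundant of the 2 mannosidases changed from Man1c1 to Man1a. Sec24c to Sec24d went from 3.29 to 3.36 to 7.03 to 8.40, and Sec24b to Sec24a from 2.82 to 3.48 to 4.76 to 5.88. Edem1 to Edem3 was 6.89 to 7.44 in immature and 17.4 to 52.5 in mature libraries, the highest in mature replicate 2. For Stt3b to Stt3a the groups overlapped, at 1.61 to 1.81 and 1.72 to 1.81. These pairs were chosen after the values were seen, and a ratio shows unequal change without saying which gene changed.

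**Figure D4:**
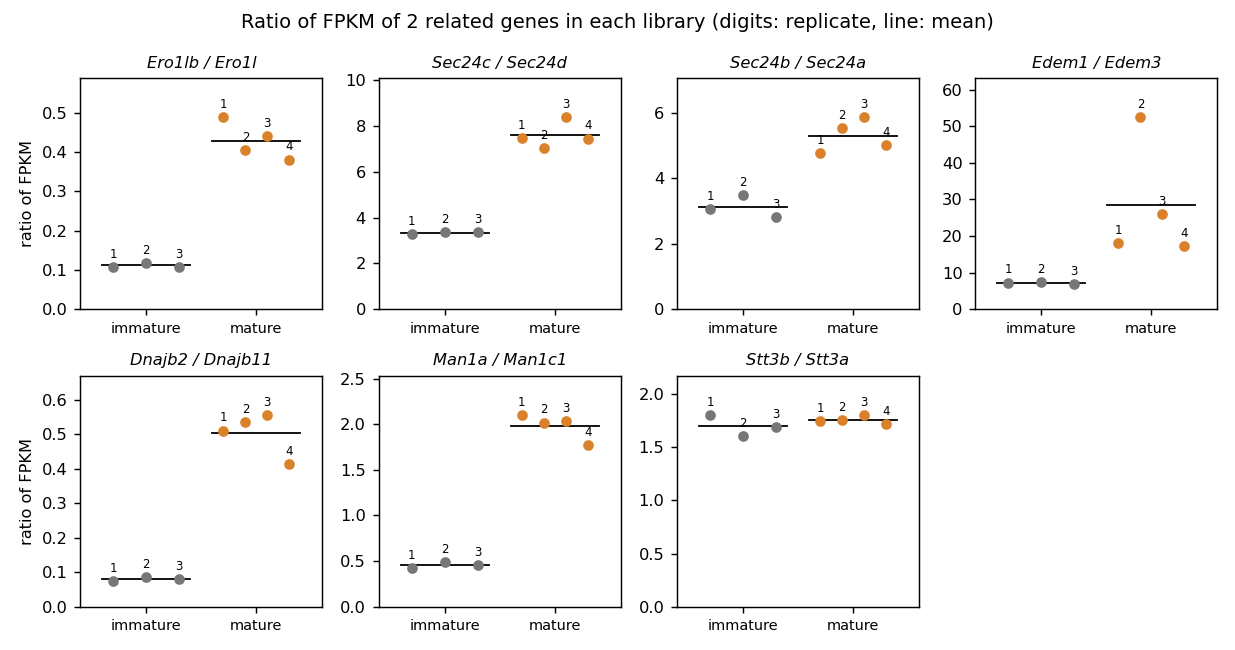
Ratio of the FPKM of 2 related genes (y axes, from 0) in each library, with the replicate number above each point and a line at the group mean. The ratio is higher in all 4 mature libraries than in the immature libraries for 6 pairs, and overlaps for Stt3b to Stt3a.

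The side of the membrane gave a second view, using the GO terms of the table in place of the assigned roles, a grouping also made after values were seen. Of 22 tested members annotated to the ER lumen, 14 fell and 3 rose. Of 67 annotated to the ER membrane and not the lumen, 35 fell and 6 rose, and of 39 annotated to the cytosol and to neither of these, 8 fell and 7 rose. In that order from the lumen, 63.6%, 52.2% and 20.5% fell, beside 22.9% of all genes. The shares that rose were 13.6%, 8.96% and 17.9%, beside 23.2%. Outside the pathway 28 of 65 lumen genes (43.1%), 269 of 614 membrane genes (43.8%) and 846 of 2991 cytosol genes (28.3%) fell, while 9, 115 and 763 rose.

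**Figure D5:**
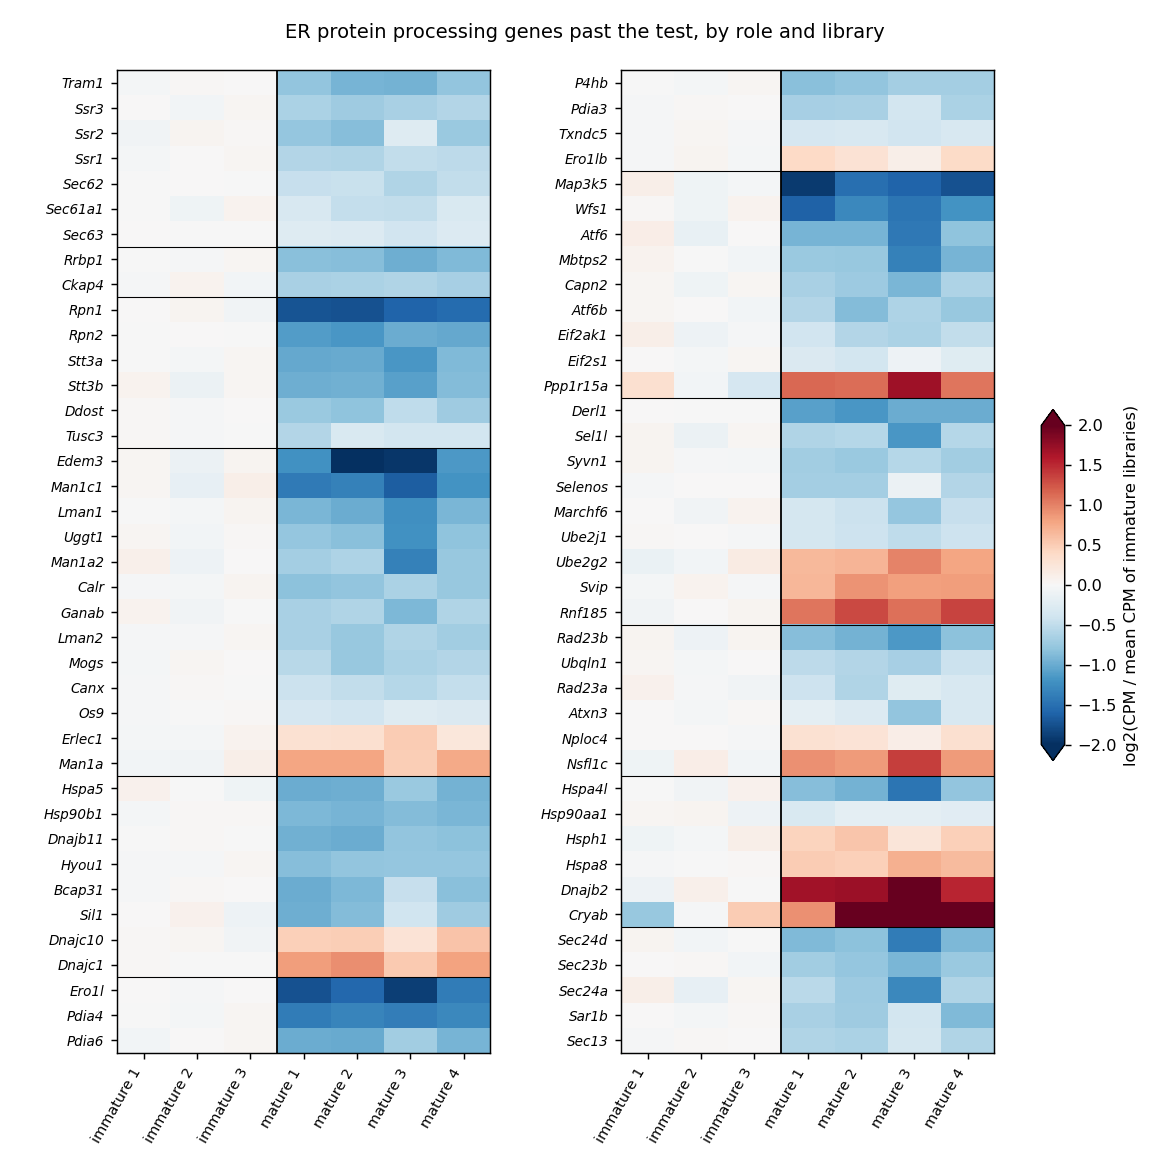
Log2 ratio of each library's CPM to the mean CPM of the immature libraries (colour, cut at -2 and 2) for 78 of the 79 ER protein processing genes past the test, in rows ordered by role from the translocon to the COPII coat and by fold change within a role, with 7 library columns and black lines between roles. Lman1l is left out because it has no count in immature cells. Most rows are blue in all 4 mature libraries, and the red rows include Ppp1r15a, Rnf185, Nsfl1c, Dnajb2 and Cryab.

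Genes of neighboring steps that the pathway does not hold were examined as 3 lists. Of 38 genes tested, 17 fell and 2 rose, beside 22.9% and 23.2% of all genes. Fkbp11, a prolyl isomerase of the ER, was at 12.2, 15.3 and 15.2 CPM in immature and 2.77, 1.22, 3.29 and 2.29 CPM in mature libraries (log2 fold change -2.58 ± 0.30, adjusted p = 0.000139). Sdf2l1, a BiP cofactor, fell by 1.08, and Tmed10, a p24 cargo receptor, was at 307, 286 and 299 CPM in immature and 145, 153, 131 and 156 CPM in mature libraries (log2 fold change -1.02 ± 0.08, adjusted p = 1.77e-05). Among the 16 stress-induced genes outside the pathway 9 fell and 2 rose, the risers being Kdelr1 and Crebrf, at 0.63 and 0.50 on the log2 scale.

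Upstream of the channel, 5 of 13 genes of the signal recognition particle, its receptor and the signal peptidase fell and none rose. The share that fell was 38.5%, beside 22.9% of all genes. Spcs3 and Spcs2, subunits of the signal peptidase, fell by 0.74 and 0.69, and Srprb, a subunit of the receptor, by 0.74. Of 9 genes of the COPI coat, which returns ER proteins from the Golgi, Arcn1, Copb1 and Copb2 fell by 0.48, 0.46 and 0.44, and the other 6 did not pass the test. For the COPI genes the share that fell was 33.3%.

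Members with the motifs are set beside all members tested, of which 42.6% fell and 10.8% rose. Of all genes tested, 22.9% fell and 23.2% rose. Among the 9 members with the ERSE letters, Calr, Canx, Hsp90b1, Hspa5, Pdia6 and Syvn1 fell, Ero1lb rose, and Derl3 and Dnajc3 did not pass the test. Whether these few genes differ from the other members was not tested. Both genes with ERSE-II were measured, Dnajb11 being lower and Herpud1 at 0.06 ± 0.08. Of the 6 with TGACGTGG, 3 fell (Sec24d, Txndc5 and Ube2j1) and 3 did not pass the test. Outside the pathway both directions occurred: of 28 further genes with the ERSE letters 12 were tested, of which 4 rose (Acacb, Xlr3a, Xlr3b and Xlr3c, the last 3 near-identical copies whose reads may be shared), 2 fell (Adcy3 and Creld2) and 6 did not pass the test. Of all 127 members with a window, 51 fell and 12 rose.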

How the data were processed

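RNA of flow-sorted immature (n = 3) and mature (n = 4) BMDCs was analysed, with groups and replicate numbers from the labels. Libraries were poly(A)-selected, dUTP-marked and paired-end. Values deposited by the authors were raw counts, not normalized, and FPKM, scaled by gene length and library total. Per the labels, the submitters' processing notes name cutadapt 1.9, HISAT2 2.2.1, StringTie 2.1.6, DESeq2, edgeR and build mm9, without their roles. The coordinates of 25805 of 28588 gene IDs (90.3%) equal those of GENCODE M21 on GRCm38, which is used here. The counting program's strand setting is not given in the sources used here, so overlapping antisense genes cannot be told apart.

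Counts were tested with edgeR 4.0.16 (R 4.3.3): its low count filter, TMM and the quasi-likelihood test over all 7 libraries, Benjamini-Hochberg over 17461 genes, with log2 fold changes ± SE of mature against immature cells. The study's criteria are an adjusted p under 0.05 and a log2 change of 1 or more either way. At 54846746 to 67973086 counts per library, the floor of 3 counts covers counting error only. Alternatives were DESeq2 1.42.0, RLE size factors, other filters, limma 3.58.1 on log2(FPKM + 1) and log2(FPKM + 0.1), each library left out, mature replicate 1 alone and the replicate number as a block. The scripts were tested on simulated data. Marker lists were summed in CPM. All else was run in Python 3.11.15 (pandas 2.3.3) and drawn with matplotlib 3.10.9.

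Genes named by rule are members past both criteria, the 2 highest and 2 lowest called members of each role, 16 defining genes, and the 3 most changed called genes of each neighboring list. Other members are examples chosen after their values were seen. Members, roles and lists were chosen with earlier results of these data known, and the roles of Tram1, Rrbp1 and Ckap4 were set after the table was seen. Promoters came from RefSeq tables (GRCm38.p6). No protein sequences were used here. Some single genes are not reported here.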

Additional observations from a re-analysis of the deposited data

Results flagged for a closer look

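Of 64 genes whose CPM in the 4 mature libraries were examined for a library far from the others (Dixon's criterion, which chance meets in about 1 of 20 groups), 11 met it, and in all 11 the library was mature replicate 3. Mature replicate 3 was above the others for Hspa5 (419 CPM, the others 351 to 361), Pdia3 (513, the others 415 to 423), Sec13 (52.2, the others 43.0 to 44.2), Nsfl1c (89.3, the others 61.7 to 64.2), Ppp1r15a (275, the others 179 to 187), Sec61b (239, the others 110.0 to 127) and Spcs2 (110, the others 86.0 to 89.5). It was below the others for Sel1l (118 CPM, the others 174 to 178), Man1a (109, the others 129.8 to 133), Arcn1 (115, the others 145 to 147) and Copb1 (106, the others 130.3 to 135). Of all 64 genes, mature replicate 3 was the library farthest from the rest in 44. The relation of its log2 ratio to gene length is given in the report, and its part in these values was not tested.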

How the results depend on the processing

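The counts of 63 members lower and 16 higher came to 58 to 78 and 13 to 28 when a library was left out, the highest of both without mature replicate 3. Past the fold criterion these ranges were 10 to 15 lower and 4 to 6 higher, and for the neighboring lists 17 to 27 lower and 1 to 2 higher, with 27 lower without mature replicate 3 and 1 higher without immature replicate 2 or immature replicate 3. All 63 members that fell and 15 of the 16 that rose kept their call without mature replicate 3. The other riser, Lman1l, was not tested in that fit. With limma on log2(FPKM + 1) and log2(FPKM + 0.1), 6 and 7 members were lower past the fold criterion in place of 12, and the cause was not tested. With mature replicate 1 as the only mature library 3 members were higher past it in place of 6, with fewer samples. DESeq2 gave 19 members higher and 63 lower, with a median log2 fold change of 0.18 over all genes with an estimate and -0.21 over members. Of 64 named genes none changed sign in 953 values under alternatives, of which 903 kept the side of the threshold, 41 lost the call (Cryab, Eif2s1, Ero1lb, Hsp90aa1, Lman1l, Nploc4 and Sec63) and 9 gained it (Eif2ak3, Ern1 and Xbp1). Depth limits only the members with few counts, such as Lman1l and Mapk10.

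The deviations of same-numbered libraries correlated at 0.0285, -0.00114 and 0.0144, and those of differently numbered libraries at -0.0484 to 0.036. Because mature replicate 3 stands apart and cardiac RNA differs between mature libraries, these values cannot tell whether the replicate numbers pair the samples. In the fit with a replicate block, 12 members were higher and 58 lower, 5 and 15 past the fold criterion, and 2 and 17 genes of the neighboring lists. Eif2s1, Ero1lb, Hsp90aa1, Lman1l (adjusted p = 0.0603), Nploc4 and Sec63 (adjusted p = 0.0671) lost their call in it.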

Other observations

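Several members of the cytosolic quality control machinery did not pass the test. Among them were the scaffold Cul1 and the ring protein Rbx1 of SCF ubiquitin ligases, at -0.02 ± 0.10 and 0.06 ± 0.15 on the log2 scale (edgeR adjusted p = 0.873 and 0.792), and their glycoprotein-binding subunit Fbxo6, at 0.10 ± 0.16 (adjusted p = 0.624). The chaperone-linked ligase Stub1 was at 69.9, 73.9 and 68.5 CPM in immature and 63.6, 64.8, 111 and 66.8 CPM in mature libraries, so that mature replicates 1, 2 and 4 lay below and mature replicate 3 above every immature library (log2 fold change 0.11 ± 0.19, adjusted p = 0.676). Bag1, an HSP70 exchange factor, was at 111, 113 and 120.2 CPM in immature and 69.4, 74.5, 115 and 77.8 CPM in mature libraries, so that mature replicates 1, 2 and 4 lay below and mature replicate 3 within the immature range (log2 fold change -0.45 ± 0.17, adjusted p = 0.0552). The conjugating enzyme Ube2d3, the most counted of its family here, was at 431, 406 and 407 CPM in immature and 377, 377, 401 and 381 CPM in mature libraries (log2 fold change -0.11 ± 0.07, adjusted p = 0.233), and the counts of Ube2d2a and its near-identical copy Ube2d2b may share reads. These genes were chosen after their values were seen.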
